A study of Rattus norvegicus with 16 samples.

Results

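Suppressors of cytokine signaling (SOCS proteins, with the related protein CIS) and the protease USP18 are the brakes that a cytokine switches on against itself. Of the 9 genes of this group that were looked for by name in the deposited gene table (Socs1 to Socs7, Cish and Usp18), 8 had a row among the 26689 genes listed, and Socs7 was not analysed here. All 8 passed a filter of at least 10 counts in at least 4 libraries, as did 13556 genes in all. Usp18 reached 10 counts in no M0CM or D10 library and passed through its M1CM and Pol1 libraries, and Socs2 reached 10 counts in no M1CM or Pol1 library and passed through its M0CM and D10 libraries, so both entered the test because they were high somewhere.

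Messenger RNA was sequenced from mesenchymal stromal cells (MSCs) of the bone marrow of 4 adult, female, wild type Sprague-Dawley rats, labelled 2, 3, 4 and 8, sorted as CD29+/CD45- cells and then kept for 24 h in 1 of 4 media. M1CM was the supernatant of inflammatory primary macrophages and M0CM that of unpolarized primary macrophages, both made in a medium based on RPMI according to the study's methods. The methods name macrophage colony stimulating factor in the medium of the inflammatory cultures and not in the fresh medium of the unpolarized ones. In M1CM against M0CM, that added factor cannot be told apart from the polarization. Pol1 was labelled as D10 with lipopolysaccharide (LPS, 100 ng/ml) and interferon gamma (20 ng/ml), whereas the methods describe a polarization medium based on RPMI with macrophage colony stimulating factor and another interferon gamma concentration. D10, the standard medium, was DMEM with 10% fetal bovine serum and gentamycin. Every rat gave MSCs to all 4 media, which made 16 libraries with n = 4 per medium, and M1CM was collected from macrophages that had themselves been given LPS and interferon gamma. A change of base medium and the conditioning cannot be told apart in the comparisons of M1CM and M0CM with D10, and the sources leave the base medium of Pol1 in doubt.

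Most cytokine and interferon receptors signal through Janus kinases (JAK), which phosphorylate STAT transcription factors, and the STAT factors in turn transcribe SOCS genes. SOCS and CIS proteins bind phosphorylated receptors or JAKs through an SH2 domain, and their SOCS box recruits Elongin B, Elongin C and Cullin 5, which mark the bound proteins for degradation. USP18 removes the ubiquitin-like modifier ISG15 from its targets and also sits on the type I interferon receptor chain IFNAR2, where it hinders the binding of JAK1. In MSCs, interferon gamma is known to license the cells to suppress immune cells, and these inhibitors are among the genes that limit an interferon response.

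The stretches just before the Socs1 and Cish start sites are shown because, of the members' windows found, only these held the motif letters searched for. RefSeq promoter windows (GRCr8 build) were matched for 5 of the 9 members (Socs1, Socs3, Socs4, Socs6 and Cish), and the 250 bases upstream of the annotated start were searched on both strands for TTCNNNGAA, the letters of a STAT-type site, and for an interferon-stimulated response element, taken as GAAA, any 2 bases and GAAA again. The first motif reads the same on both strands. Matches are in capitals, 5′ to 3′.
Socs1 (chr10:5389324-5389573, plus strand): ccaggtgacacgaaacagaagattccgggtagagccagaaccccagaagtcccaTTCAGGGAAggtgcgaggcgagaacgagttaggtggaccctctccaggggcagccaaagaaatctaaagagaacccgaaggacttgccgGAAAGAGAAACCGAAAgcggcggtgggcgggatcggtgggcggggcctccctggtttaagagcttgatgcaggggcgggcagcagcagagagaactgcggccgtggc
Cish (chr8:116850719-116850968, plus strand): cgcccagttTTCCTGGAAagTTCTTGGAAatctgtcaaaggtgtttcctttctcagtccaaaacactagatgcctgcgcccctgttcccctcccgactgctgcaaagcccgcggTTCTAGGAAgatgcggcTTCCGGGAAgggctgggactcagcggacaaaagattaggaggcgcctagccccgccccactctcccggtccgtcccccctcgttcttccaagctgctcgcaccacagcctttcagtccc
The Socs1 window held 1 match to TTCNNNGAA (TTCAGGGAA) and 2 to the response element (GAAAGAGAAA and GAAACCGAAA), which overlap each other by 4 bases and end 92 bases before the start. The Cish window held 4 matches to TTCNNNGAA (TTCCTGGAA, TTCTTGGAA, TTCTAGGAA and TTCCGGGAA) between 241 and 111 bases before the start and none to the response element. Of 33469 rat promoter windows of the same length, 7.67% held TTCNNNGAA, 2 windows held it 4 or more times, 3.41% held the response element letters and 0.206% held them 2 or more times. The Socs3, Socs4 and Socs6 windows held neither, and those of Socs3 and Socs6 start 1207 and 6128 bases inside the outermost start of the gene, so they may not cover its promoter. A match describes letters and is not evidence of binding.

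Between 23291125 and 27808152 counts were obtained per M1CM library, 25097631 to 28075391 per Pol1 library, 24055829 to 27863079 per M0CM library and 25259670 to 31992709 per D10 library. Levels below are counts per 1e6 scaled counts (CPM), and a gene was called higher or lower at an adjusted p below 0.05 in edgeR's quasi-likelihood test over all 13556 genes, with no minimum fold. The 12 listed MSC marker genes summed to a median of 62524 CPM in M1CM (48647 to 105507), 96142 CPM in Pol1, 113258 CPM in M0CM and 126284 CPM in D10 (100844 to 151167). Cd34, which is among the 12 and which MSCs lack, was at 0 in all 16 libraries. Most of that sum came from the collagen genes Col1a1 and Col1a2. They had 4408476 and 1971909 counts in M1CM and 8891470 and 3631562 in D10. The single markers were split, with 3 of the 11 tested higher and 4 lower in M1CM against D10 (44.4% of all genes called). Pdgfra had 134977 counts in M1CM and 29498 in D10. How far the shift in this sum bears on the results was not tested. Libraries of a whole culture give the mean over its cells, so fewer expressing cells and less RNA per cell cannot be told apart.

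In M1CM, 4 of the 8 members were higher than in D10 (Socs1, Socs3, Cish and Usp18) and 1 was lower (Socs2). Of all tested genes, 44.4% were called in either direction there, 23.3% as higher and 21.1% as lower. Pol1 raised 3 members over D10 (Socs1, Socs3 and Usp18) and lowered Socs2, against 18.6% of all genes called, 10.6% higher and 8.09% lower. M0CM changed none of the 8 against D10, where 0.14% of all genes were called, 0.125% higher and 0.0148% lower, although 1 member had an unadjusted p below 0.05, DESeq2 called 0 and a term for the rat 1. Between M1CM and Pol1, Socs3, Cish and Usp18 were higher in M1CM and none was lower, against 25.1% of all genes called, 13.8% higher and 11.3% lower. Between M1CM and M0CM, 4 members were higher and 2 lower (Socs2 and Socs6), against 40.3% of all genes called, 21.5% higher and 18.9% lower. Without rat 3, Socs4 was also called lower in M1CM against D10, Pol1 and M0CM and Socs5 against M0CM, and without rat 2, 4 or 8 Socs6 was no longer called against M0CM. The median log2 fold change of the 8 members was 1.22 in M1CM against D10, 0.46 in Pol1 against D10, 0.06 in M0CM against D10, -0.03 in M1CM against Pol1 and 1.18 in M1CM against M0CM, and that of all tested genes lay between -0.0077 and -0.0016 in each. M1CM, Pol1 and M0CM were compared with the same D10 libraries, and the comparisons of M1CM share its libraries, so they are not independent.

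**Figure D1:**
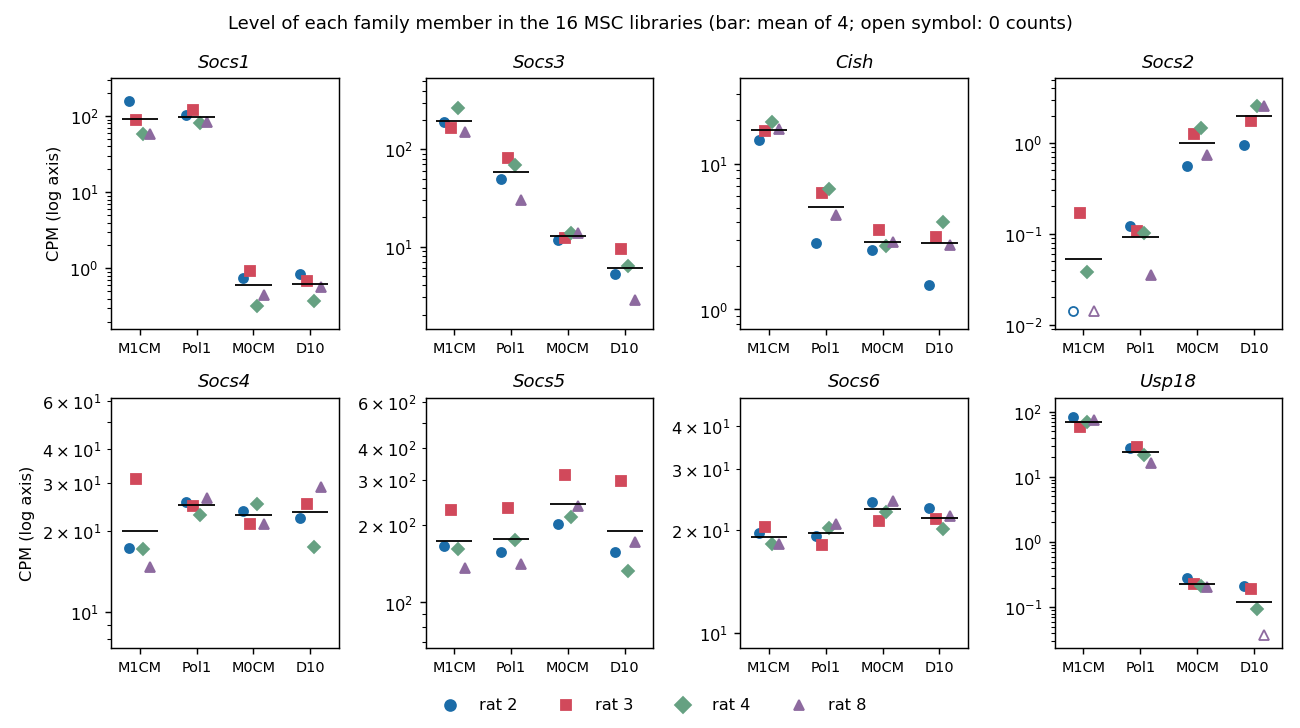
Level of each of the 8 members in every library, in CPM on a log axis, for M1CM, Pol1, M0CM and D10 from left to right; symbols mark the rat, bars the mean of 4 libraries, and open symbols at the lower edge libraries with 0 counts. Socs1 sits between 58.6 and 156 CPM in M1CM and between 80.3 and 119 CPM in Pol1 but below 1 CPM in M0CM and D10, whereas the ranges of Socs4 and Socs5 overlap between every pair of media.

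SOCS1 and SOCS3 are the members that can also block JAK catalysis directly, through a kinase inhibitory region. Socs1, best known for restraining interferon gamma and type I interferon signaling, was nearly silent in standard medium and abundant after both inflammatory media. Its level was 156, 87.9, 58.6 and 58.8 CPM in M1CM (rats 2, 3, 4 and 8), 103, 119, 80.3 and 82.6 CPM in Pol1, 0.757, 0.923, 0.317 and 0.449 CPM in M0CM, and 0.836, 0.676, 0.376 and 0.571 CPM in D10. Both inflammatory media stood far above the other 2, with no overlap, and each pair of like media overlapped. Over D10, the log2 fold change was 7.21 in M1CM (SE 0.42, adjusted p = 5.42e-09, 148-fold) and 7.30 in Pol1 (SE 0.42, adjusted p = 7.69e-09, 158-fold), higher in 4 of 4 rats in each. M1CM and Pol1 did not differ detectably, with 90.3 ± 45.9 CPM in M1CM and 96.3 ± 18.3 CPM in Pol1 (SD, n = 4 each, log2 fold change -0.09, SE 0.30, adjusted p = 0.854). Within a rat the M1CM level was 1.51 times the Pol1 level in rat 2 and 0.712 to 0.739 times it in the other 3. Against M0CM the rise in M1CM was close to that against D10 (log2 fold change 7.20, SE 0.42, adjusted p = 6.39e-09).

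Socs3, which binds the shared receptor chain gp130 and restrains interleukin 6 and its relatives, followed a graded pattern in which M1CM went beyond Pol1. It stood at 193, 166, 268 and 151 CPM in M1CM (rats 2, 3, 4 and 8), 50.1, 82.2, 68.8 and 30.4 CPM in Pol1, 11.7, 12.4, 13.8 and 13.7 CPM in M0CM, and 5.27, 9.35, 6.39 and 2.82 CPM in D10. No range overlapped that of the next medium, M0CM and D10 included. Over D10, Socs3 rose 32.7-fold in M1CM (log2 fold change 5.03, SE 0.38, adjusted p = 7.27e-08) and 9.73-fold in Pol1 (log2 fold change 3.28, SE 0.35, adjusted p = 7.91e-06). The difference between M1CM and Pol1 was itself called, 3.36-fold higher in M1CM (log2 fold change 1.75, SE 0.32, adjusted p = 0.00125) and 2.01 to 4.97 times within each rat. In Pol1 the fold over D10 was nearly the same in every rat, 8.79 to 10.8, whereas in M1CM it ran between 17.7 in rat 3 and 53.5 in rat 8. Socs3 was the 1 member whose M0CM and D10 ranges did not overlap, where 3.72% of all tested genes had such ranges. It was at 12.9 ± 1.04 CPM in M0CM and 5.96 ± 2.71 CPM in D10 (SD, n = 4 each, log2 fold change 1.12, SE 0.33, adjusted p = 0.539). With a term for the rat the same comparison was called (log2 fold change 1.21, adjusted p = 0.0363), in a fit that called 1.1% of all genes. The 4 rats had 2.22, 1.32, 2.16 and 4.85 times their D10 level.

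CIS and SOCS2 act on receptors that use STAT5, CIS by occupying their phosphorylated docking sites (on the erythropoietin and interleukin 2 receptors, for example) and SOCS2 above all on the growth hormone receptor. Both genes are known STAT5 targets, yet they moved in opposite directions here. Cish was at 14.6, 16.7, 19.2 and 17.2 CPM in M1CM (rats 2, 3, 4 and 8), 2.84, 6.28, 6.73 and 4.48 CPM in Pol1, 2.55, 3.5, 2.71 and 2.90 CPM in M0CM, and 1.46, 3.15, 3.98 and 2.76 CPM in D10. Every M1CM library lay above every other library, and the other 3 media overlapped. Cish rose 5.94-fold in M1CM over D10 (log2 fold change 2.57, SE 0.29, adjusted p = 5.15e-06) and was 3.33-fold higher in M1CM than in Pol1 (log2 fold change 1.74, SE 0.28, adjusted p = 0.000451). In Pol1 it did not pass the threshold against D10 (log2 fold change 0.84, SE 0.28, adjusted p = 0.051). Each rat nonetheless had 1.62 to 1.99 times its own D10 level in Pol1, and with a term for the rat it was called (adjusted p = 0.0043), in a fit that called 32.4% of all genes, as it was without rat 2 (adjusted p = 0.0177). The Cish window shown above holds the STAT-type letters 4 times and the response element letters not at all. No binding was measured, and the part of these letters in the Cish levels was not tested.

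Socs2 was the only member of the 8 called lower than D10 in both inflammatory media. It was at 0, 0.171, 0.0378 and 0 CPM in M1CM (rats 2, 3, 4 and 8), 0.122, 0.108, 0.102 and 0.0355 CPM in Pol1, 0.558, 1.27, 1.48 and 0.734 CPM in M0CM, and 0.961, 1.76, 2.54 and 2.57 CPM in D10. These are few counts, 5 in all over the 4 M1CM libraries, 10 in Pol1, 107 in M0CM and 232 in D10. The log2 fold change against D10 was -5.19 in M1CM (SE 0.73, adjusted p = 4.14e-05) and -4.36 in Pol1 (SE 0.67, adjusted p = 0.000311), lower in 4 of 4 rats in each. Against M0CM, the log2 fold change of Socs2 in M1CM was -4.24 (SE 0.73, adjusted p = 0.000307). Rat 3 gave 4 of the 5 counts in M1CM, and without it the log2 fold change in M1CM was -6.90 against D10 and -5.77 against M0CM, both still called. M1CM and Pol1 could not be told apart at this depth (log2 fold change -0.83, SE 0.86, adjusted p = 0.521). In M0CM all 4 rats were below their D10 level, at 0.286 to 0.719 times it, but the ranges overlapped and the difference was not called (log2 fold change -0.95, SE 0.54, adjusted p = 1).

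Usp18, itself an interferon-stimulated gene, showed the largest rise of the 8 members. It stood at 81.8, 58.2, 68.4 and 73.0 CPM in M1CM (rats 2, 3, 4 and 8), 27.8, 28.6, 21.9 and 16.1 CPM in Pol1, 0.279, 0.231, 0.211 and 0.204 CPM in M0CM, and 0.209, 0.188, 0.0939 and 0 CPM in D10. The D10 level rests on 13 counts and the M0CM level on 24, against 7336 in M1CM and 2579 in Pol1. M1CM lay above Pol1, and Pol1 above M0CM and D10, with no overlap. Over D10 the log2 fold change was 9.19 in M1CM (SE 0.39, adjusted p = 2.61e-10) and 7.62 in Pol1 (SE 0.38, adjusted p = 2.09e-09). M1CM exceeded Pol1 2.98-fold (log2 fold change 1.58, SE 0.25, adjusted p = 0.000404), and 2.03 to 4.53 times within each rat. Against M0CM the log2 fold change in M1CM was 8.22 (SE 0.37, adjusted p = 4.37e-10). Usp18 and Socs1 had the largest and next largest log2 fold changes of the 8 members over D10 in both inflammatory media. Between M1CM and Pol1, Usp18 was called and Socs1 was not, and the difference between the 2 genes was not tested.

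SOCS4, SOCS5 and SOCS6 are less tied to JAK signaling, SOCS4 and SOCS5 being linked to turnover of the epidermal growth factor receptor and SOCS6 to the receptor KIT. Their genes were expressed in all 16 libraries and moved little. Socs4 was at 17.3, 30.8, 17.1 and 14.7 CPM in M1CM (rats 2, 3, 4 and 8) and between 22.9 and 26.3 CPM in Pol1, 21.1 and 25.1 CPM in M0CM, and 17.4 and 28.9 CPM in D10. In M1CM rat 3 stood apart from the other rats, and no comparison called the gene with all libraries (M1CM against D10, log2 fold change -0.23, SE 0.20, adjusted p = 0.38). Without rat 3, Socs4 was lower in M1CM than in D10 (log2 fold change -0.48, adjusted p = 0.0409), Pol1 (-0.60, adjusted p = 0.0274) and M0CM (-0.51, adjusted p = 0.0356). Without rat 2, 4 or 8 it was called in none of these (adjusted p = 0.394 to 0.973 against D10, 0.466 to 0.673 against Pol1 and 0.779 to 0.858 against M0CM).

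Socs5 differed more between rats than between media. It was at 166, 230, 161 and 136 CPM in M1CM (rats 2, 3, 4 and 8), 157, 233, 175 and 142 CPM in Pol1, 203, 313, 214 and 238 CPM in M0CM, and 156, 297, 133 and 172 CPM in D10. Rat 3 was highest in every medium. M1CM and D10 did not differ detectably (log2 fold change -0.13, SE 0.25, adjusted p = 0.701). Against M0CM, Socs5 was at 0.57 to 0.82 times the M0CM level in every rat in M1CM, which was called with a term for the rat (log2 fold change -0.49, adjusted p = 0.00361), a fit that called 52.3% of all genes, but not without it (log2 fold change -0.48, SE 0.25, adjusted p = 0.133). Without rat 3 it was also called (adjusted p = 0.0123), and without rat 2, 4 or 8 it was not (adjusted p = 0.206 to 0.368).

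Socs6 varied little within and between media. It lay between 18.1 and 20.4 CPM in M1CM, 18.1 and 20.7 CPM in Pol1, 21.2 and 24.2 CPM in M0CM, and 20.1 and 23.2 CPM in D10. The M1CM and M0CM ranges did not overlap, and the small difference between them was called (log2 fold change -0.27, SE 0.08, adjusted p = 0.0158, lower in 4 of 4 rats). That call was lost without rat 2, 4 or 8 (adjusted p = 0.0754 to 0.131) and with only those 2 media in the fit (adjusted p = 0.0611). Against D10, Socs6 was not called in M1CM (log2 fold change -0.18, SE 0.08, adjusted p = 0.0805) or in Pol1 (log2 fold change -0.15, SE 0.08, adjusted p = 0.244).

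**Figure D2:**
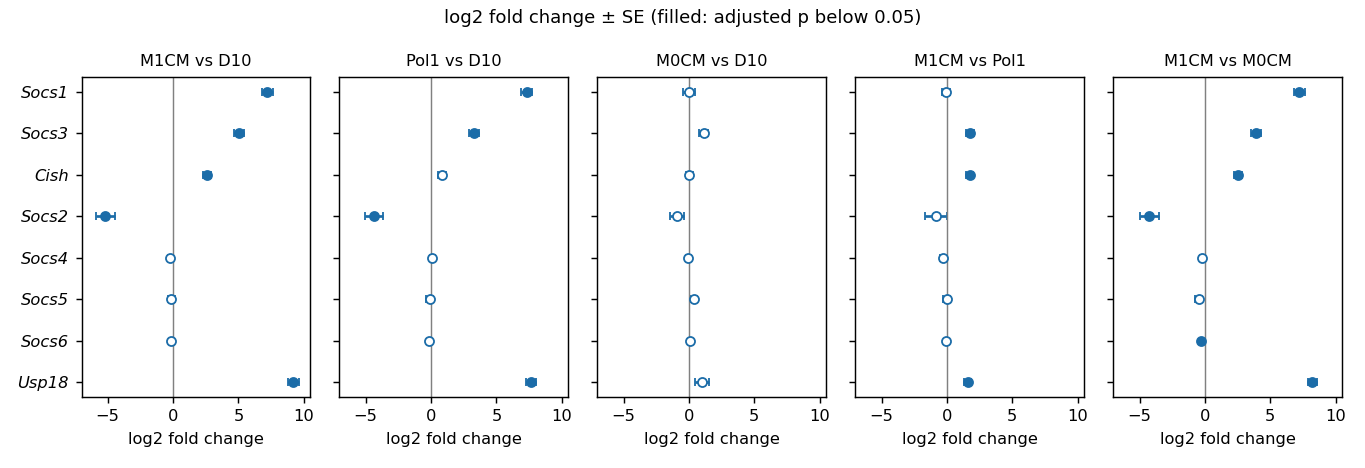
Log2 fold change of each member with its standard error in the 5 comparisons; filled points have an adjusted p below 0.05 in edgeR's quasi-likelihood test. Usp18 and Socs1 lie above 7 in M1CM and in Pol1 against D10, Socs2 lies at -5.19 and -4.36, and in M1CM against Pol1 the filled points are Socs3, Cish and Usp18.

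Counted by range rather than by test, 5 members did not overlap between M1CM and D10 (35.9% of all tested genes), 4 between Pol1 and D10 (23%), 3 between M1CM and Pol1 (24.3%) and 6 between M1CM and M0CM (35.8%). The members that did not overlap in these 4 comparisons were the ones called in each.

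Levels of different genes were compared per length, in the fragments per kilobase and 1e6 reads (FPKM) that the authors deposited, which use gene lengths between 639 bases for Socs1 and 4233 bases for Socs5. In M1CM, Socs3 led with 286 ± 83.6 FPKM, followed by Socs1 with 139 ± 63.9, Usp18 with 43.5 ± 5.04 and Socs5 with 40.8 ± 9.57 FPKM (SD, n = 4). The Socs3 and Socs1 ranges overlapped, as did those of Usp18 and Socs5. In Pol1 the order of the first 2 was turned round, with Socs1 at 153 ± 27.5 FPKM and Socs3 at 87.2 ± 34.5 FPKM and no overlap between them, ahead of Socs5 at 42.5 ± 9.78 FPKM and Usp18 at 14.96 ± 3.49 FPKM. The Pol1 ranges of Socs3 and Socs5 overlapped, as did those of Usp18, Socs4 and Socs6 in turn. In M0CM, Socs5 led with 57.3 ± 11.4 FPKM and Socs3 followed with 19.1 ± 1.86 FPKM, without overlap, and among the low members Cish, Socs2 and Socs1 overlapped in turn. In D10, Socs5 led with 43.9 ± 16.7 FPKM, and Socs6 (13.2 ± 0.623 FPKM), Socs4 (11.5 ± 2.49 FPKM) and Socs3 (8.59 ± 3.84 FPKM) came next, the Socs4 range overlapping both of its neighbours in that order. Usp18 was last in M0CM and D10 (0.144 ± 0.0189 and 0.0738 ± 0.0569 FPKM), and Socs2 was last in M1CM and Pol1 (0.0573 ± 0.0886 and 0.101 ± 0.0415 FPKM).

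Added over the 8 members, the level was 424 to 619 FPKM in the M1CM libraries, 254 to 416 in Pol1, 94.0 to 120 in M0CM and 67.4 to 111 in D10. The share of Socs1 and Socs3 in that sum was 74.9% to 81.6% in M1CM, 70.7% to 75.5% in Pol1, 16.3% to 20.6% in M0CM and 6.48% to 14.8% in D10. Socs5 took 6.07% to 10.7% in M1CM, 11.7% to 13.6% in Pol1, 49.98% to 61.2% in M0CM and 46.4% to 61.3% in D10. The ratio of Socs3 to Socs1 in a library was 1.16 to 4.32 in M1CM and 0.347 to 0.807 in Pol1, without overlap. It was 12.6 to 41.1 in M0CM and 4.66 to 16.02 in D10, where Socs1 rests on 63 and 68 counts over the 4 libraries. These shares and ratios are descriptions with no test.

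**Figure D3:**
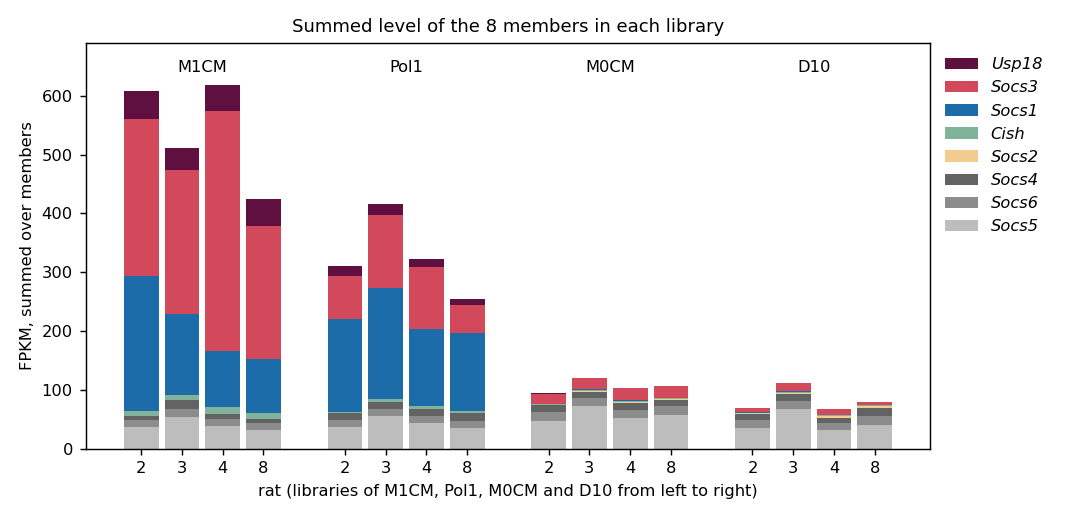
Summed FPKM of the 8 members in each of the 16 libraries, stacked by member, with the libraries of M1CM, Pol1, M0CM and D10 from left to right and the rat under each bar. Socs3 and Socs1 together fill 74.9% to 81.6% of the M1CM bars, and Socs5 fills 46.4% to 61.3% of the D10 bars.

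The rats differed within a medium by gene. The highest over the lowest library came to 2.66 for Socs1, 1.78 for Socs3, 1.41 for Usp18, 1.32 for Cish and 1.12 for Socs6 in M1CM. In D10 the same measure was 2.23 for Socs1, 3.31 for Socs3, 2.72 for Cish and 1.16 for Socs6. Rat 2 had the highest Socs1 and Usp18 and the lowest Cish in M1CM, and rat 8 the lowest Socs3 in M1CM, Pol1 and D10. With 4 rats these orders carry no test.

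For each of the 5 members called in M1CM against D10, the 3 tested genes with the most similar profile were taken by Pearson's r of log2 CPM over the 16 libraries. The libraries share rats and media, so r mostly follows the differences between media and is given with no p. Of the 15 genes named here, Igtp and Irf9 stayed among the nearest 3 when each rat's mean was removed, and the other 13 ranked 5 to 23. Socs1 was most like LOC100910979 (r = 0.996), Gbp2 (0.996) and Igtp (0.995), of which Gbp2 and Igtp encode interferon-induced GTPases. Usp18 was most like Irf9 (r = 0.994), RT1-S3 (0.994) and Mlkl (0.993). Irf9, which encodes a transcription factor of the type I interferon response, stood at 70.7, 51.8, 13.9 and 12.1 CPM on average in M1CM, Pol1, M0CM and D10. Socs3 was most like Zc3h12a (r = 0.982), which encodes an RNase that destroys cytokine transcripts, Ggct (0.981) and Irak3 (0.981), an inhibitor of Toll-like receptor signaling. Irak3 averaged 282, 134, 42.6 and 26.4 CPM in the same order. Cish was most like the adenosine receptor gene Adora2a (r = 0.981), Maff (0.975) and Agrn (0.974), and Socs2 like the actin gene Acta1 (r = 0.974), Brd3 (0.959) and Dvl3 (0.959). Among the members, Socs1 and Usp18 had r = 0.973, Socs3 and Usp18 0.958, Socs3 and Cish 0.889, and Socs1 and Cish 0.720.

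The inhibitors were set beside the ligands, receptors and targets of the same pathway. Of 21 listed ligands that induce SOCS genes, 19 had a row and 9 passed the count filter. A ligand high in a single medium could pass through that medium's libraries alone, so the 9 favour genes that were high somewhere. Of these 9, 7 rose and 0 fell in M1CM against D10 (44.4% of all genes called), with a median log2 fold change of 4.38. Pol1 raised 2 of them (18.6% of all genes called, median 0.27). Between M1CM and Pol1 directly, 6 of the 9 were higher in M1CM and 0 lower (25.1% of all genes called, 13.8% higher, median 2.46 for the ligands). Csf3, the gene of granulocyte colony-stimulating factor, whose receptor SOCS3 restrains, averaged 105 ± 85.7 CPM in M1CM and 0.0883 ± 0.0895 CPM in Pol1 (SD, n = 4 each, log2 fold change 10.11, SE 0.70, adjusted p = 8.76e-07). The smallest called rise of a ligand was that of Clcf1, a cytokine of the interleukin 6 family, at 9.52 ± 4.78 CPM in M1CM and 4.41 ± 2.31 CPM in D10 (log2 fold change 1.11, SE 0.40, adjusted p = 0.0356).

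Interferon receptors, JAK kinases and STAT factors rose widely, with 13 of 15 higher in M1CM than in D10 (44.4% of all genes called) and 9 of 15 in Pol1 (18.6%), and 0 lower in each (median log2 fold change 1.25 and 0.67). Stat2, whose product acts in type I interferon signaling, averaged 681 ± 28.1 CPM in M1CM, 462 ± 38.8 CPM in Pol1 and 41.1 ± 5.19 CPM in D10 (SD, n = 4 each). Its log2 fold change was 4.05 in M1CM (SE 0.14, adjusted p = 1.57e-11) and 3.49 in Pol1 (SE 0.13, adjusted p = 8.51e-11) against D10. Jak2, the kinase that SOCS1 and SOCS3 inhibit, averaged 992 ± 300 CPM in M1CM, 222 ± 60.7 CPM in Pol1 and 89.4 ± 18.9 CPM in D10. Like Socs3, it was higher in M1CM than in Pol1 (log2 fold change 2.16, SE 0.24, adjusted p = 2.76e-05). Stat3, whose product is known to drive Socs3 transcription, rose alike in M1CM (log2 fold change 1.38, SE 0.14, adjusted p = 2.27e-06) and in Pol1 (1.28, SE 0.14, adjusted p = 1.39e-05) against D10. Ifngr1, the ligand-binding chain of the interferon gamma receptor, was called in M1CM (log2 fold change 1.54, SE 0.23, adjusted p = 7.55e-05) and not in Pol1 (0.50, SE 0.23, adjusted p = 0.148), and the M1CM level exceeded that of Pol1 (log2 fold change 1.04, SE 0.23, adjusted p = 0.00387). Jak3, the kinase of the common gamma chain, had the smallest called rise (log2 fold change 0.45, SE 0.13, adjusted p = 0.0135).

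Of 15 other cytokine receptors that SOCS or CIS proteins restrain, 8 rose in M1CM against D10 (44.4% of all genes called) and 5 in Pol1 (18.6%), and 0 fell. With a term for the rat 10 were higher and 1 lower in M1CM (55.3% of all genes called), and 9 higher and 0 lower in Pol1 (32.4%). Il6st, which encodes gp130, the docking site of SOCS3, averaged 2911 ± 1128 CPM in M1CM and 920 ± 297 CPM in D10 (SD, n = 4 each, log2 fold change 1.66, SE 0.35, adjusted p = 0.00126). Csf2rb, the common beta chain, averaged 0.772 ± 0.311 CPM in M1CM and rests on 3 counts in D10. Il10rb had the smallest called rise (log2 fold change 0.51, SE 0.13, adjusted p = 0.00432).

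All 27 tested interferon target genes other than the members were higher in M1CM and in Pol1 than in D10 (44.4% and 18.6% of all genes called, median log2 fold change 8.39 and 7.22). Between M1CM and Pol1, 15 of them were higher in M1CM and 0 lower (25.1% of all genes called, 13.8% higher). In M0CM 2 of the 27 were lower than in D10 and 0 higher, where 0.0148% of all genes were called lower and 0.125% higher. Those 2 were all the genes called lower there of the 13556 tested. Genes of this list could pass the count filter through their M1CM and Pol1 libraries alone, so a call between M0CM and D10 can rest on few counts. In that comparison 2 of the 27 had 0 counts in 1 of the 2 media. Batf2, an interferon-induced transcription factor, averaged 79.4 ± 10.4 CPM in M1CM and 40.9 ± 1.88 CPM in Pol1 and had 0 counts in D10. Ifit2 had the smallest rise in M1CM (log2 fold change 2.44, SE 0.19, adjusted p = 8.96e-08). The 5 tested genes of the ISG15 system, whose work USP18 undoes, were also all higher in both media. Isg15 averaged 158 ± 67.0 CPM in M1CM, 91.6 ± 14.6 CPM in Pol1 and 0.692 ± 0.118 CPM in D10 (log2 fold change in M1CM against D10 7.83, SE 0.35, adjusted p = 3.55e-10). The ligase gene Trim25 rose least (log2 fold change 2.64, SE 0.16, adjusted p = 9.46e-09).

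Of 17 genes known as STAT3 or STAT5 targets, 12 were higher and 2 lower in M1CM against D10 (44.4% of all genes called), and 10 and 2 in Pol1 (18.6%). Pim1, a kinase gene, averaged 96.8 ± 46.9 CPM in M1CM and 5.46 ± 0.773 CPM in D10 (log2 fold change 4.15, SE 0.41, adjusted p = 1.27e-06). Fos fell to 1.33 ± 0.503 CPM in M1CM, against 16.1 ± 5.16 CPM in D10 (log2 fold change -3.60, SE 0.36, adjusted p = 1.65e-06). Of all tested genes, 23.3% were called higher and 21.1% lower in M1CM against D10, and 10.6% and 8.09% in Pol1. The list mixes STAT3 and STAT5 targets, and whether Cish and Socs2 follow them was not tested.

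Of the PIAS proteins and phosphatases listed as other restraints on JAK and STAT, more were called higher than lower. Of 13 tested, 7 were higher and 1 lower in M1CM against D10 (44.4% of all genes called, 23.3% higher and 21.1% lower). In Pol1 against D10 they were 4 and 1 (18.6%, 10.6% higher and 8.09% lower). Ptpn1, a phosphatase that acts on JAK2 and TYK2, averaged 390 ± 53.4 CPM in M1CM, 157 ± 26.4 CPM in Pol1 and 74.1 ± 9.31 CPM in D10 (log2 fold change in M1CM against D10 2.40, SE 0.15, adjusted p = 1.44e-08). The 1 gene called lower in M1CM was Dusp1, a phosphatase of MAP kinases. It was at 55.2 ± 16 CPM in M1CM, against 203 ± 77.3 CPM in D10 (log2 fold change -1.88, SE 0.28, adjusted p = 7.59e-05).

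The ubiquitin ligase subunits that the SOCS box recruits moved little. Of 7 tested, 2 were higher and 1 lower in M1CM against D10, near the share of all genes called (44.4%). Cul5, the scaffold that most SOCS proteins use, fell to 46.0 ± 10.2 CPM in M1CM, against 67.7 ± 15.6 CPM in D10 (log2 fold change -0.56, SE 0.16, adjusted p = 0.0119). Cul2 was higher (log2 fold change 0.67, SE 0.08, adjusted p = 5.44e-06). Of 12 other SOCS substrates and adaptors, 6 were higher and 1 lower in M1CM against D10 (44.4% of all genes called), whereas the fit with the rat term called 7 higher and 2 lower (55.3%). Called genes included Rela, the p65 subunit of NF-kB (log2 fold change 1.39, SE 0.09, adjusted p = 1.25e-08), and Ptk2, focal adhesion kinase (log2 fold change -0.30, SE 0.06, adjusted p = 0.000678). The medians of all tested genes given above apply to these lists too, which were drawn up with results of these data known. Each list counts only genes past the filter, so genes low in every medium were left out.

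**Figure D4:**
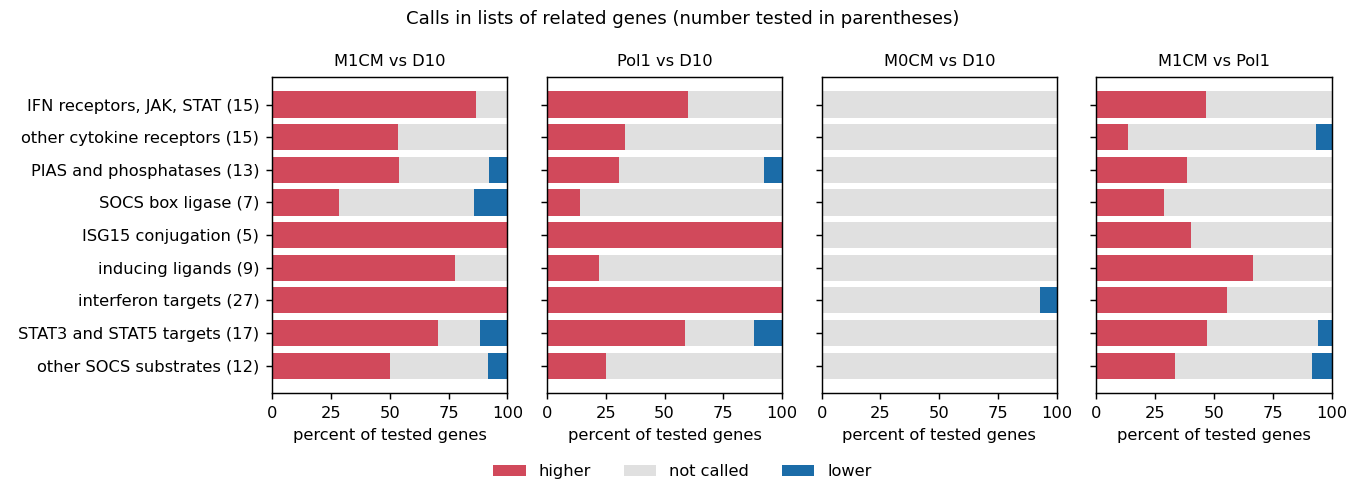
Share of the tested genes of 9 pathway lists that were called higher or lower in 4 comparisons, with the number tested in parentheses. All 27 interferon targets and all 5 ISG15 system genes are called higher in M1CM and in Pol1, and 7 of 9 ligands in M1CM but 2 of 9 in Pol1.

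Macrophage transcripts were followed because M1CM and M0CM are supernatants of such cells. The 19 macrophage and monocyte markers matched summed to 17.5 to 41.1 CPM in M1CM, 7.50 to 11.8 CPM in Pol1, 19.8 to 25.2 CPM in M0CM and 5.65 to 9.53 CPM in D10. Of the 10 tested, 5 were higher and 2 lower in M1CM against D10, 0 higher and 1 lower in Pol1, and 2 higher and 0 lower in M0CM, where 44.4%, 18.6% and 0.14% of all genes were called in M1CM, Pol1 and M0CM. With a term for the rat, 6 were higher in M0CM, in the fit that called 1.1% of all genes. Cybb, a subunit gene of the phagocyte oxidase, averaged 1.91 ± 2.00 CPM in M1CM, 1.21 ± 0.0720 CPM in M0CM and 0.0674 ± 0.0612 CPM in D10, and Mrc1 had 0 counts in M1CM and 13 in D10. Ptprc (CD45) had 12 counts in M1CM, 37 in M0CM and 0 in Pol1 and D10, and Cd163 and Marco were at 0 in every library. Single markers differed between the macrophage media, with 1782 counts of Cd14 in M1CM and 813 in M0CM, and 25 counts of Lyz2 in M1CM and 243 in M0CM. The part of macrophage RNA in the differences of any member in M1CM or M0CM was not tested. Pol1, which holds no macrophage supernatant, had Socs1 at 80.3 to 119 CPM, Socs3 at 30.4 to 82.2 CPM and Cish at 2.84 to 6.73 CPM. Usp18 was at 16.1 to 28.6 CPM and Socs2 at 0.0355 to 0.122 CPM there. Socs3, Cish and Usp18 were 3.36-, 3.33- and 2.98-fold higher in M1CM than in Pol1, and Socs1 and Socs2 were not called between these media. Of 11 MSC markers tested, 3 were higher and 4 lower in M1CM against D10 (44.4% of all genes called), whereas the fit with the rat term called 3 higher and 5 lower (55.3%). Vim fell to 1825 ± 326 CPM in M1CM, against 7684 ± 818 CPM in D10 (log2 fold change -2.07, SE 0.15, adjusted p = 4.51e-08), and Vcam1 was higher, at 669 ± 550 CPM in M1CM and 6.0 ± 5.96 CPM in D10 (log2 fold change 6.81, SE 1.27, adjusted p = 0.000521).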

How the data were processed

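MSCs from 4 rats were kept for 24 h in M1CM, Pol1, M0CM or D10 (16 libraries). The authors mapped the reads with TopHat2 2.0.12 and Bowtie2 2.2.3 and counted them per gene with HTSeq 0.6.1, which gave the deposited read counts, not normalized. The deposited FPKM values rest on those counts, scaled by the authors for gene length and sequencing depth. Their methods name the Rnor 6.0 genome, but 68 and 24 genes lie on contigs named AABR06 and JH620, of an earlier assembly, so no coordinates from the file were used. The processing notes name DESeq 1.18.0 and the methods another version. The authors' p-values and calls for their own comparisons, also deposited, were not used. All 16 count columns were mapped to a rat and a medium by the labels, and 0 per-sample columns were left over. How the counting treated strand is not given in the sources used here.

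Members were matched by gene name, or by the first KEGG symbol where a row had none. Members and gene lists were chosen with earlier results of these data known. The 13556 genes that reached 10 counts in 4 or more libraries entered edgeR 4.0.16 (R 4.3.3) with TMM scaling. All 16 libraries were fitted together, 1 coefficient for each medium, and compared by the two-sided quasi-likelihood test, with Benjamini-Hochberg adjustment over all tested genes of a comparison. SE is that of the log2 fold change, CPM are per 1e6 TMM-scaled counts, and correlations used log2 CPM with a prior count of 2. The edgeR fit without a term for the rat was tried on simulated counts for 2 media, drawn from D10 levels without differences between rats. The other fits were not tried on simulated data. Named genes are all members, the called genes with the largest and the smallest log2 fold change of each list in M1CM against D10, 7 genes that members act on or bind, and the 3 genes most like each member called there. Libraries of the same rat deviated alike from their medium's mean (r = 0.33 to 0.728 over 24 pairs) and libraries of different rats did not (r = -0.519 to 0.225 over 72 pairs), and the labels give the animal, so a fit with a term for the rat was also made. Replicates are rats, each with 1 library per medium. Alternatives were other scaling factors, library totals, no count filter, a minimum of 50 counts, DESeq2 1.42.0, the rat term, only the compared media, and leaving out each rat.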

Additional observations from a re-analysis of the deposited data

Results flagged for a closer look

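The Socs4 level of rat 3 in M1CM, 30.8 CPM, stood apart from the other M1CM libraries of the gene, at 17.3, 17.1 and 14.7 CPM in rats 2, 4 and 8. Its gap to the nearest of them was 0.84 of the whole range, above Dixon's 95% critical value for 4 samples. It was 1 of 32 sets of 4 libraries looked at, and chance marks about 1 in 20. Without rat 3, Socs4 was lower in M1CM than in D10 (edgeR adjusted p = 0.0409), whereas with all 4 rats it was not called (adjusted p = 0.38). Nor was it called without rat 2, 4 or 8 (adjusted p = 0.394 to 0.973).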

How the results depend on the processing

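Of the 18 member comparisons that were called, 191 of 195 repeats under the alternatives kept their call and direction, and the 4 that did not were all Socs6 in M1CM against M0CM. A minimum of 50 counts removes Socs2, which leaves 0 members lower in M1CM and 0 in Pol1 against D10 and 1 in M1CM against M0CM, and with only the 2 compared media that last count is also 1. Leaving out each rat gave 1 to 2 members lower in M1CM against D10, 0 to 1 in M1CM against Pol1 and 1 to 4 in M1CM against M0CM, the upper end in each being without rat 3. With the replicate block (the rat term) 1 member was higher in M0CM against D10 (Socs3), and the block changed no member's call other than this one, Cish in Pol1 against D10 and Socs5 in M1CM against M0CM. Cish in Pol1 against D10 (log2 fold change 0.84, adjusted p = 0.051) was also called with library totals (0.0495), a minimum of 50 counts (0.0483), DESeq2 (0.0231) and without rat 2 (0.0177), and not without rat 3, 4 or 8 (0.115 to 0.207). Directions turned only for members that were not called. Leaving out each rat moved the log2 fold change across 0, in M1CM against D10, for Socs4 (-0.48 to 0.012, the upper end without rat 8) and Socs5 (-0.24 to 0.0095, without rat 3), and in Pol1 against D10 for Socs5 (-0.24 to 0.037, without rat 3). In M0CM against D10 it did so for Socs1 (-0.21 to 0.096), Socs4 (-0.21 to 0.11) and Cish (-0.12 to 0.28), where Socs1 was also at -0.022 with the block and -0.0010 with the 2 media only. In M1CM against Pol1 it did so for Socs1 (-0.46 to 0.041), Socs5 (-0.057 to 0.0014) and Socs6 (-0.10 to 0.015). The cause was not tested. When profiles were compared as deviations from each rat's mean, 2 of the 15 most similar genes named stayed among the nearest 3. Depth limits Socs2 in M1CM and Pol1 and Usp18 in D10 and M0CM, with 5 to 24 counts over 4 libraries.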
